A study of Mus musculus with 8 samples.

Results

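The transcripts described here are those of 10 genes that encode bone morphogenetic proteins (BMPs), growth and differentiation factors (GDFs) and an activin subunit, measured in C3H10T1/2 cells, a mouse mesenchymal line derived from embryo that can be driven towards bone, cartilage and fat. The genes are Bmp1, Bmp2, Bmp4, Bmp5, Bmp6, Bmp7, Gdf5, Gdf6, Gdf10 and Inhba. All probe sets annotated with 1 of these symbols and no other gene were kept, which gave 13 of the 22690 probe sets on the array. They stand for 9 of the 13243 genes that have such a probe set, as no probe set of the table carries Gdf6. Confluent cultures were given 3.3 nM BMP7 protein for 3 days (4 arrays, BMP7 1 to 4), and cultures of the other group were given vehicle (4 arrays, Vehicle 1 to 4); the numbers are those of the sample titles. Every sample is of this 1 cell line, at 1 dose and 1 time. Values are MAS5 signals, intensities on a linear scale that the authors had scaled alike on all arrays. The array measures RNA in the cells and not the protein that was added.

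BMPs and GDFs are secreted as precursors, cut by proprotein convertases into mature dimers, and bound by pairs of type I and type II receptors. For many of these ligands, though not all, the receptors phosphorylate SMAD1, SMAD5 and SMAD9. Activins, dimers of inhibin beta subunits, use related receptors that phosphorylate SMAD2 and SMAD3. BMP signalling is known to switch on its own inhibitors, and mesenchymal cells are known both to make and to answer these ligands. Despite its name, Bmp1 encodes no ligand of this family but a metalloprotease that trims procollagens and cleaves the BMP antagonist chordin.

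Of the 13 probe sets, 4 had a mean over the 8 arrays above the filter of about 325 signal units (the 40th percentile of all probe sets on the log2 scale) and were tested. These were the single probe sets of Inhba and Bmp4 and a pair of Bmp1 probe sets. None of the 4 passed limma's test at an adjusted p of 0.05 (Benjamini-Hochberg over all tested probe sets), against 3.13% of all 13576 tested probe sets (1.63% as higher and 1.5% as lower), and 2 of the 4 had an unadjusted p under 0.05, against 21.8% of all. The other 9 probe sets, of Bmp2, Bmp5, Bmp6, Bmp7, Gdf5, Gdf10 and another site in Bmp1, lay below the filter. No detection calls were used here, so whether these low transcripts were present at all cannot be told from the signals.

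1 array stood apart from the rest and touches several results below. The ratio of 3' to 5' signal of the Actb control, which is high in degraded RNA, was 1.17 to 1.19 on the BMP7 arrays, against 6.55 on Vehicle 3 and 1.17 to 1.40 on the other vehicle arrays. The same ratio of the Gapdh control was 0.725 to 0.797 on the BMP7 arrays, against 0.895, 1.35, 3.36 and 0.752 on Vehicle 1 to 4. By both ratios, then, Vehicle 1 and Vehicle 2 also lay above every BMP7 array (Actb 1.21 and 1.40). The Gapdh ratio was not used as a covariate. The added hybridisation controls averaged 11.40 to 11.68 (log2 signal) on the BMP7 arrays, against 13.02 on Vehicle 3 and 11.65 to 12.32 on the other vehicle arrays. Vehicle 3 was the highest of the 4 vehicle arrays for 7 member probe sets and the lowest for 4, so that it was extreme for 84.6% of them, against 63.2% of all probe sets without controls. All 8 mesenchymal markers examined lay above the filter, and their summed signal ran from 176579.5 to 205296.8 on the BMP7 arrays and from 231323.5 to 329761.8 on the vehicle arrays, without overlap. That sum of linear signals is carried by the strongest of them, Col1a1, Col1a2, Col3a1 and Vim. Thy1 averaged 2229 ± 760 in BMP7 and 2457 ± 546 in vehicle cells (SD), and Pdgfra 3726 ± 842 and 9131 ± 2460. Of all tested probe sets, 15.4% had separated groups. None of 4 epithelial markers and 1 of 4 endothelial markers (Kdr) lay above the filter, with summed signals of 341.9 to 446.6 on the BMP7 and 321.1 to 605.0 on the vehicle arrays for the first list and 422.7 to 1119.4 on the BMP7 and 589.8 to 842.1 on the vehicle arrays for the second. Of 5 leukocyte and macrophage markers 3 lay above the filter (Adgre1, Csf1r and Cd14), and their summed signal was 2264.5 to 3291.4 on the BMP7 arrays and 2486.6 to 3290.5 on the vehicle arrays. What part these marker and array measures have in the results below was not tested beyond the fits named there. In these bulk samples a smaller number of cells of a type and less RNA per cell cannot be told apart.

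Inhba, on chromosome 13, encodes the inhibin beta A chain, which forms activin A as a dimer. Its probe set 1422053_at gave signals of 1331.0, 1841.6, 2190.0 and 1386.7 on BMP7 1 to 4, against 1143.8, 705.6, 117.0 and 641.1 on Vehicle 1 to 4. Every BMP7 array lay above every vehicle array, and Vehicle 3 was far below the rest. It was the only 1 of the 4 tested member probe sets with separated groups, a pattern seen in 15.4% of all tested probe sets (8.3% with BMP7 above and 7.1% with BMP7 below vehicle). The means were 1687 ± 406 in BMP7 and 651.9 ± 421 in vehicle cells (SD, n = 4 each), a log2 fold change of 1.68 ± 0.54 (SE) on the log2(signal + 16) scale, or 3.21-fold with a 95% interval of 1.41 to 7.31. The difference did not pass the correction over all tested probe sets in limma (adjusted p 0.111, unadjusted 0.00979). In the authors' deposited table the ratio of the Inhba group means is 2.59 and the unadjusted p-value 0.0122. The ratio there is 0.677 for Bmp1 1426238_at and 0.167 for Bmp7 1418910_at. Their unadjusted p-values, from the same unequal-variance test, are 0.0754 and 0.107.

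**Figure D1:**
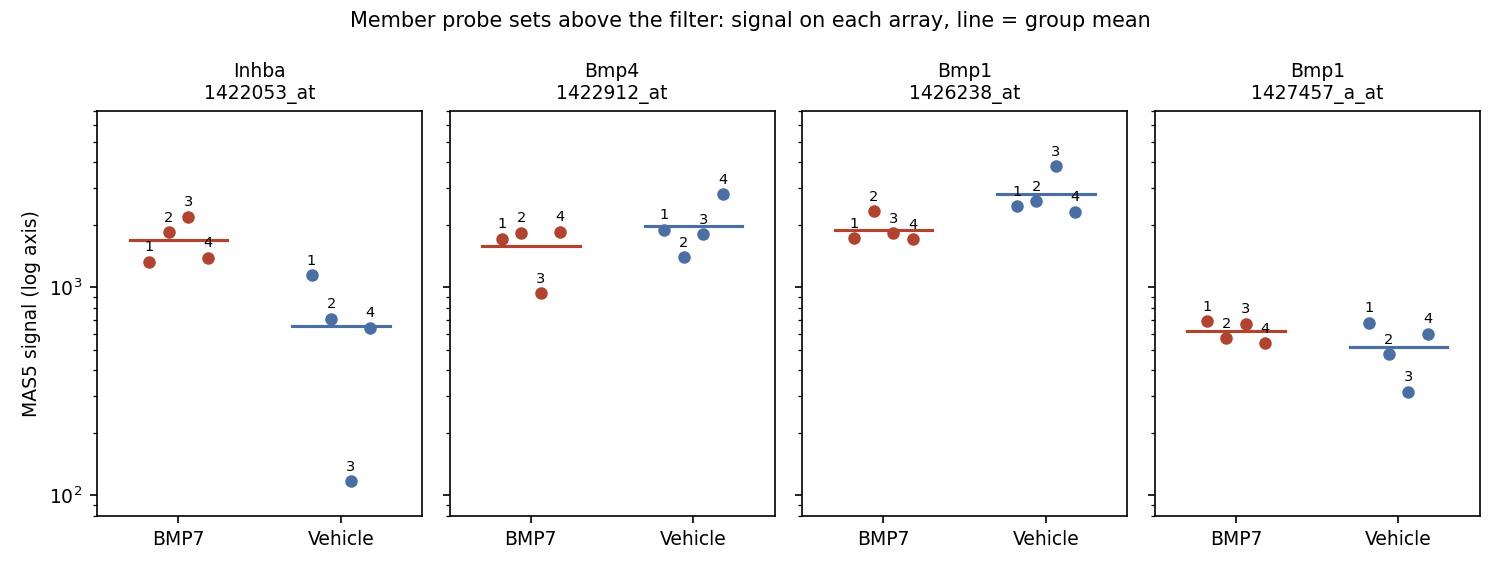
MAS5 signal (log axis) of the 4 member probe sets above the filter on each array, BMP7 at the left and vehicle at the right of each panel, with replicate numbers beside the points and a line at the group mean. Inhba shows no overlap, from 1331.0 to 2190.0 in BMP7 and from 117.0 to 1143.8 in vehicle cells, while the groups overlap for Bmp4 and for both Bmp1 probe sets.

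The size of the Inhba difference turned on Vehicle 3. Without that array the log2 fold change was 1.03 ± 0.25 (SE), smaller but less variable, and it passed limma's test (adjusted p 0.0433). Leaving out any other single array gave 1.55 to 2.07 with no pass (highest adjusted p 0.268). With the Actb 3'/5' ratio as a covariate the log2 fold change was 0.94 ± 0.27 (adjusted p 0.0740), and with array weights it was 1.04 ± 0.32 (adjusted p 0.0503). With the signal of the hybridisation controls as a covariate it was 0.31 ± 0.53 (adjusted p 0.850); that signal lay above all BMP7 arrays on 3 of the 4 vehicle arrays. On Vehicle 4, where it lay within the range of the BMP7 arrays (11.65), Inhba had 641.1. With 1 such array, the group and the control signal cannot be told apart. Over all 20 alternatives the log2 fold change stayed above 0, from 0.31 to 2.07.

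**Figure D2:**
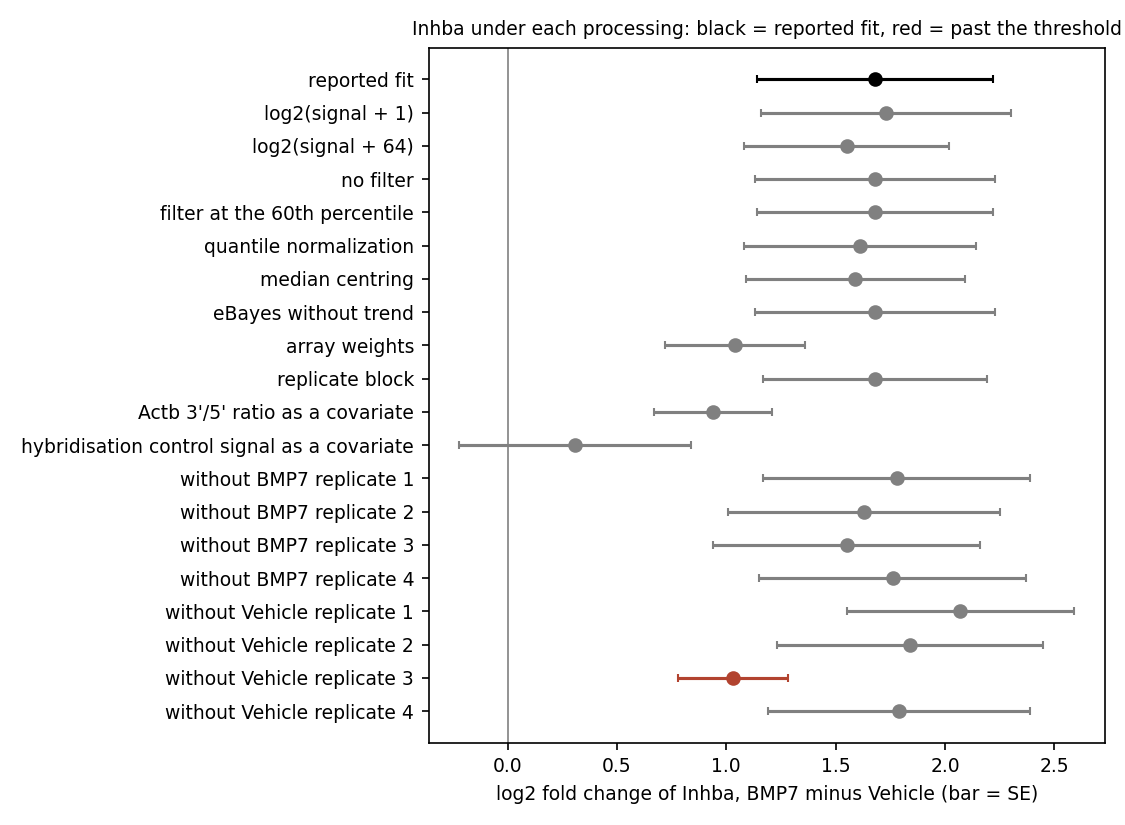
Log2 fold change of Inhba (BMP7 minus vehicle, bars show 1 SE) in the reported fit and under each alternative that gives an SE. The values run from 0.31 with the hybridisation control covariate to 2.07 without Vehicle 1, and the fit without Vehicle 3 (1.03) passed the threshold.

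**Figure D3:**
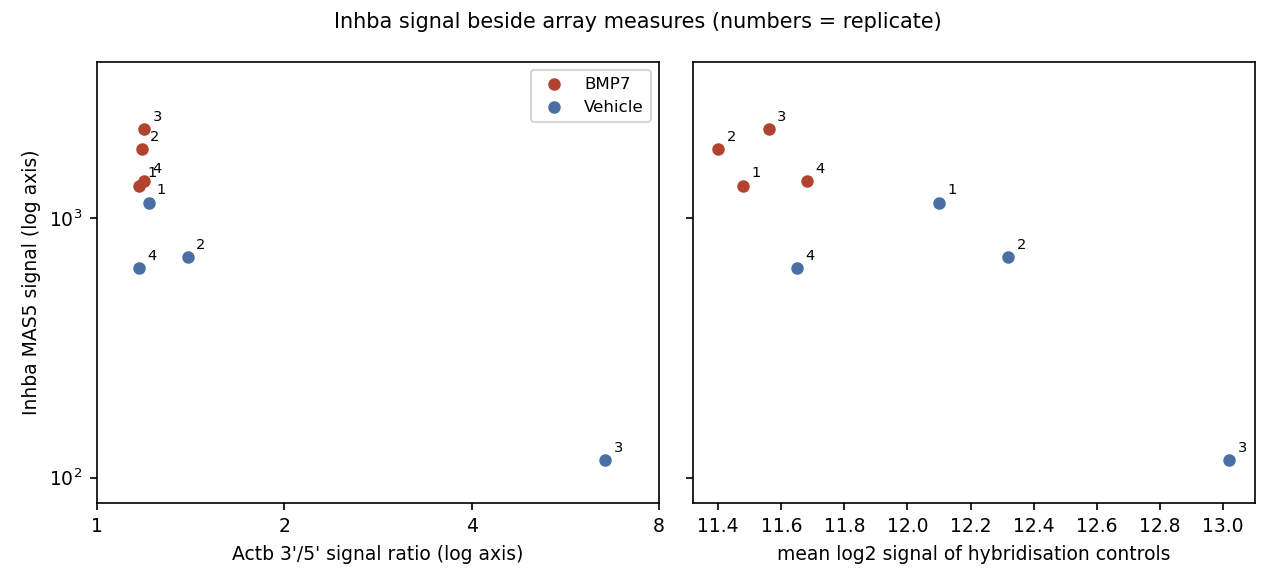
Inhba signal (log axis) on each array against the Actb 3'/5' ratio (left, log axis) and the mean log2 signal of the hybridisation controls (right). Vehicle 3 lies alone at 117.0 with a ratio of 6.55 and a control signal of 13.02, and the other 3 vehicle arrays lie below the BMP7 arrays in signal.

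Bmp4, on chromosome 14, encodes a ligand closely related to BMP2 that is known in mesenchymal lines for bone and fat commitment. Its probe set 1422912_at gave 1715.4, 1833.4, 937.3 and 1855.1 on BMP7 1 to 4, against 1890.5, 1396.5, 1796.0 and 2805.2 on Vehicle 1 to 4. The groups overlapped: 3 BMP7 arrays lay within the vehicle range, and BMP7 3 lay below it. The means were 1585 ± 436 in BMP7 and 1972 ± 595 in vehicle cells (SD, n = 4 each). The log2 fold change was -0.32 ± 0.28 (SE; adjusted p 0.525 in limma), with a 95% interval of -0.93 to 0.29. A decrease to 0.525 of the vehicle level and an increase to 1.23 times that level both lie in this interval. Without BMP7 3 the log2 fold change was -0.08, and without Vehicle 4 it was -0.13.

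A stretch of Inhba and of Bmp4 that lies just before an annotated transcript start is shown because these are the tested genes that encode ligands, 1 with separated groups and 1 without. Both are the 250 bases upstream of the start used in a reference promoter table on GRCm38.p6, 5′ to 3′ on the gene's strand. They lie at chr13:16011601-16011850 (plus strand) for Inhba and chr14:46390670-46390919 (minus strand) for Bmp4. For Bmp4 that start is the outer end of the gene as RefSeq annotates it. For Inhba it is an internal start at position 16011851, inside the annotated gene (chr13:16004256-16031609), so the Inhba stretch lies within the gene's span and not before its outermost start. Capitals mark the SMAD box GTCT, read on either strand so that it also shows as AGAC, and the TATA box TATAAA.
Inhba: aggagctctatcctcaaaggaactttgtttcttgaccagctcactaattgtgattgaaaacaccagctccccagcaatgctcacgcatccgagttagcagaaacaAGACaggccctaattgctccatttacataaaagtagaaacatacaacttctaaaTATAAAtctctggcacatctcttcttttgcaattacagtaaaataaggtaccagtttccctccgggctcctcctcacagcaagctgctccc
Bmp4: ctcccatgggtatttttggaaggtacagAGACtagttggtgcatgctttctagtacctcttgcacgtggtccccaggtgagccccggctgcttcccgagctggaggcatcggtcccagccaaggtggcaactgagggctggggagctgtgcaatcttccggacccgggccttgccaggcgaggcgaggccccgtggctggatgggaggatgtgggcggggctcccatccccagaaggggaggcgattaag

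Inhba has 1 SMAD box, at 145 bases before that internal start, and 1 TATA box, at 91 bases before it, while Bmp4 has 1 SMAD box, at 222 bases before the start, and no TATA box. The 4 letters of the SMAD box occur in 82.9% of all 32851 promoter windows of this length and the TATA box in 12.4%, counting both strands, and the marked motifs do not overlap. The GC-rich SMAD element GGCGCC, found in 9.59% of windows, is in neither. The GC content was 43.2% for Inhba and 63.2% for Bmp4, against a median of 52.4%. Of the other members, Bmp5, Bmp6 and Gdf10 also have a window in the table. Among them Bmp5 has 1 SMAD box, Bmp6 3 and Gdf10 3, and none of the 3 windows holds a TATA box or GGCGCC. These matches describe the letters and say nothing of binding.

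Bmp2, on chromosome 2, encodes the osteogenic partner of BMP4 in sequence and receptor use. Its only probe set, 1423635_at, gave 58.2, 10.2, 39.5 and 2.0 on BMP7 1 to 4, against 1.1, 10.5, 52.3 and 48.1 on Vehicle 1 to 4. These signals lay far below the filter and scattered widely in both groups, with means of 27.5 ± 26.1 in BMP7 and 28.0 ± 26.0 in vehicle cells (SD, n = 4 each). The log2 fold change in the fit without a filter was -0.01 with a 95% interval of -1.28 to 1.26, which leaves a change of more than 2-fold in either direction possible.

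BMP5, BMP6 and BMP7 form a subgroup of ligands of similar sequence. The endogenous Bmp7 transcript, on chromosome 2, was read by 2 probe sets. The first, 1418910_at, gave 6.9, 7.8, 6.8 and 8.0 on BMP7 1 to 4, against 33.6, 21.6, 92.2 and 29.5 on Vehicle 1 to 4. All BMP7 arrays lay below all vehicle arrays and close to each other, while Vehicle 3 was the highest of its group. Of the 9 member probe sets below the filter this was the only one whose groups did not overlap, and 5.61% of all untested probe sets had separated groups. The means were 7.375 ± 0.613 in BMP7 and 44.22 ± 32.4 in vehicle cells (SD, n = 4 each), among the lowest 2.7% of probe sets by mean log2 signal. In the fit without a filter the log2 fold change was -1.24 ± 0.38 (SE) and the adjusted p in limma 0.134. That value followed the pseudocount, at -2.21 with a pseudocount of 1 and -0.56 with 64. Without Vehicle 3 it was -0.91. The second Bmp7 probe set, 1432410_a_at, did not share the pattern: it gave 14.8, 26.6, 18.5 and 15.3 on BMP7 1 to 4, against 14.5, 17.0, 10.7 and 19.0 on Vehicle 1 to 4, with overlapping groups and a log2 fold change of 0.15. Probe sets ending _a_at can read more than 1 transcript of a gene.

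Bmp5, on chromosome 9, known in the mouse as the short ear gene, also had a pair of probe sets. On 1421282_at the signals were 62.2, 29.8, 13.6 and 45.0 on BMP7 1 to 4, against 11.8, 17.1, 27.5 and 19.7 on Vehicle 1 to 4. On 1421283_at they were 54.0, 111.0, 206.6 and 73.8 on BMP7 1 to 4, against 68.6, 98.7, 162.5 and 22.4 on Vehicle 1 to 4. Both sets had overlapping groups, and the array with the highest BMP7 signal on the second, BMP7 3, had the lowest on the first. Their log2 fold changes were 0.54 (95% interval -0.29 to 1.38) and 0.35 (-0.83 to 1.54). Bmp6, on chromosome 13, gave 116.1, 156.7, 37.3 and 35.8 on BMP7 1 to 4, against 65.9, 153.0, 59.5 and 174.8 on Vehicle 1 to 4 (1450759_at). The groups overlapped, with a log2 fold change of -0.42 (95% interval -1.57 to 0.74).

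The GDFs were low as well. Gdf5, on chromosome 2, encodes a ligand of joint and cartilage formation, and its probe set 1419139_at gave 23.3, 43.7, 36.6 and 38.5 on BMP7 1 to 4, against 15.6, 98.0, 105.6 and 29.0 on Vehicle 1 to 4. All BMP7 arrays lay inside the vehicle range, and the log2 fold change was -0.39 (95% interval -1.45 to 0.67). Gdf10, on chromosome 14 and also known as Bmp3b, gave 6.4, 47.1, 8.5 and 279.9 on BMP7 1 to 4, against 67.5, 97.9, 357.1 and 52.6 on Vehicle 1 to 4 (1424007_at). 1 array in each group was far above the rest, BMP7 4 and Vehicle 3, and the value on Vehicle 3 was the only 1 of the 72 signals of these 9 probe sets above the filter. The Gdf10 log2 fold change of -1.14 had the widest error of the 13 (SE 0.82, 95% interval -2.94 to 0.65), and it ran from -1.94 (without BMP7 4) to -0.62 (without Vehicle 3) when each array was left out in turn. Without a filter the adjusted p in limma of the 9 low probe sets lay between 0.134 for Bmp7 and 0.997 for Bmp2.

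**Figure D4:**
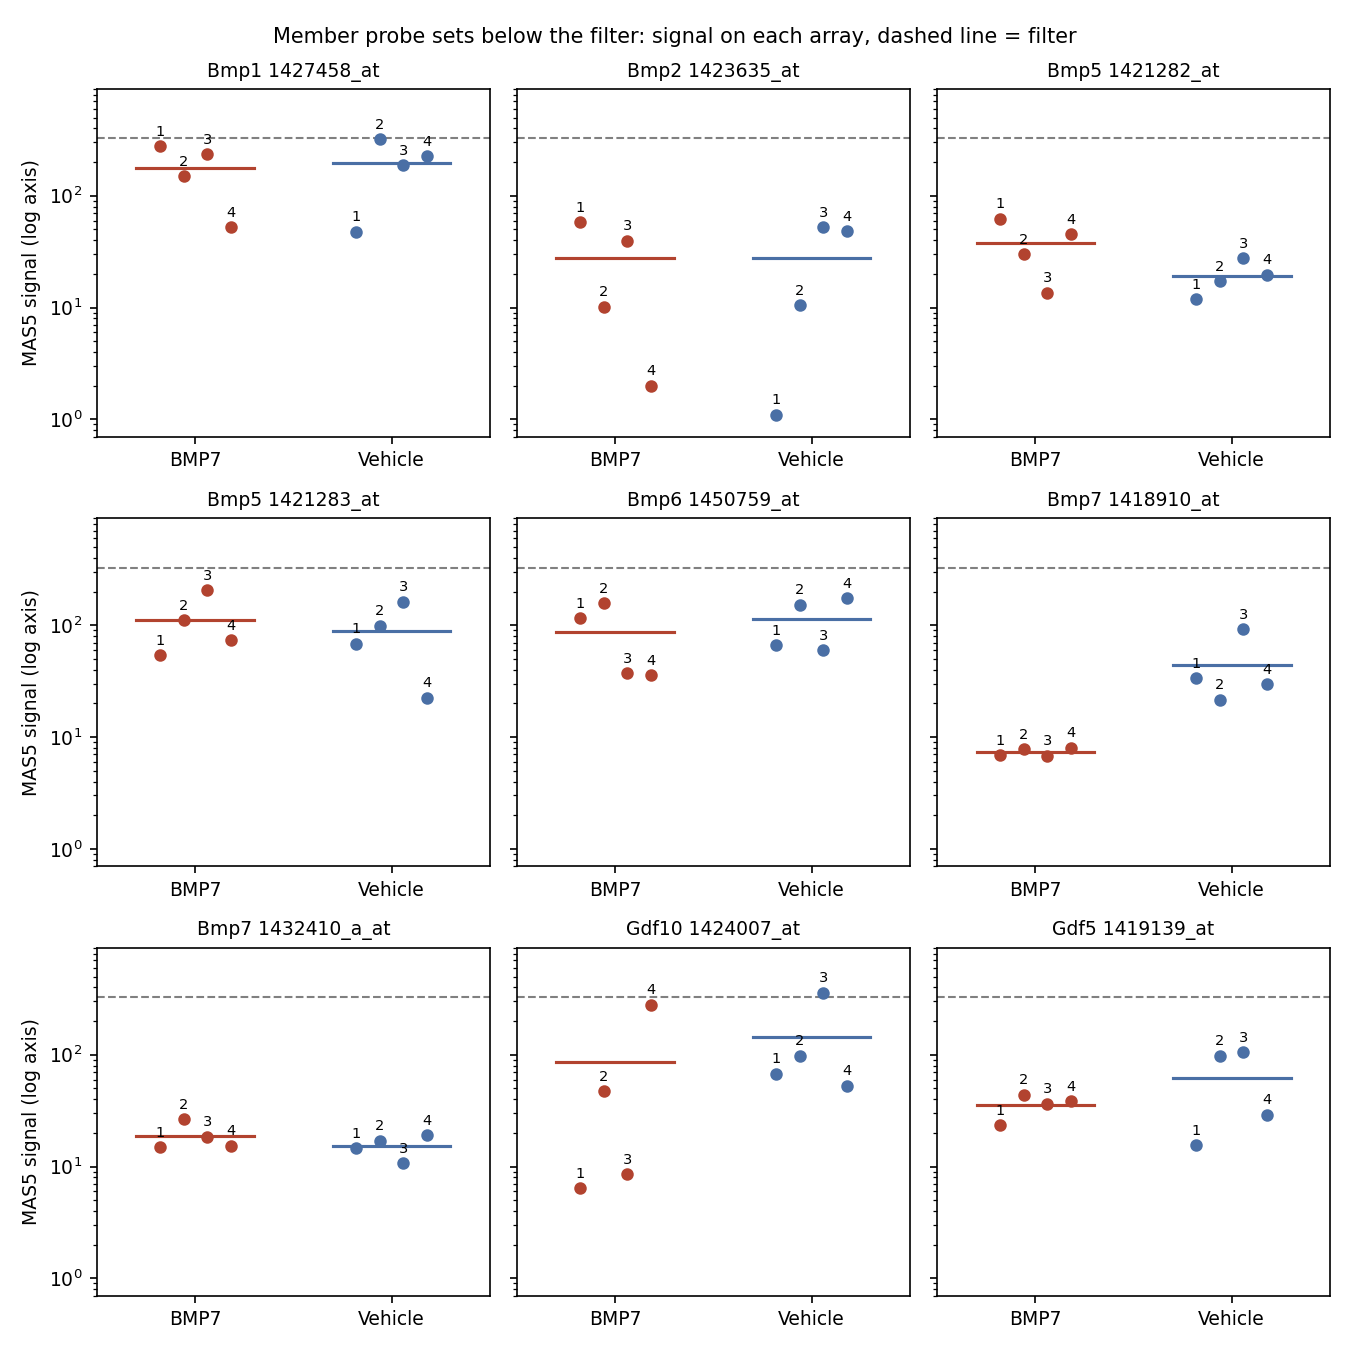
MAS5 signal (log axis) of the 9 member probe sets below the filter on each array, BMP7 left of vehicle, with replicate numbers, a line at the group mean and the filter of about 325 as a dashed line. The groups overlap in 8 panels, and in that of Bmp7 1418910_at the BMP7 arrays lie between 6.8 and 8.0 and the vehicle arrays between 21.6 and 92.2.

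Bmp1, on chromosome 14, is the protease of the set, and its transcripts are known to be spliced into shorter (BMP-1) and longer (mammalian tolloid) forms. Its probe set 1426238_at gave 1721.0, 2322.8, 1823.8 and 1698.5 on BMP7 1 to 4, against 2448.7, 2592.3, 3830.8 and 2310.4 on Vehicle 1 to 4. The groups crossed only at BMP7 2 and Vehicle 4, and Vehicle 3 was the highest. The means were 1892 ± 293 in BMP7 and 2796 ± 700 in vehicle cells (SD, n = 4 each), a log2 fold change of -0.54 ± 0.21 (SE), or 0.687 of the vehicle level with a 95% interval of 0.498 to 0.947. It did not pass the correction (adjusted p 0.170 in limma, unadjusted 0.0260). Without Vehicle 3 the log2 fold change was -0.38 (adjusted p 0.195), with the Actb 3'/5' ratio as a covariate -0.36, and with the hybridisation control covariate -0.19.

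The second tested Bmp1 probe set, 1427457_a_at, gave 685.8, 570.4, 670.0 and 538.1 on BMP7 1 to 4, against 677.1, 478.0, 315.4 and 599.7 on Vehicle 1 to 4. Here the groups overlapped and Vehicle 3 was the lowest array, not the highest. The log2 fold change was 0.29 ± 0.27 (SE; adjusted p 0.544 in limma, 95% interval -0.30 to 0.88), and 0.08 without Vehicle 3. The remaining one, 1427458_at, lay below the filter at 275.6, 149.0, 234.8 and 52.2 on BMP7 1 to 4, against 47.7, 321.5, 187.4 and 224.9 on Vehicle 1 to 4 (log2 fold change -0.09). The log2 difference between the first and second set within an array was 1.59 ± 0.30 in BMP7 and 2.42 ± 0.78 in vehicle cells (SD, n = 4 each), and these differed by -0.83 (p = 0.0857, two-sided exact permutation test over 70 splits; chosen after the values were seen). Without Vehicle 3 they differed by -0.46 (exact p = 0.143 over 35 splits).

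**Figure D5:**
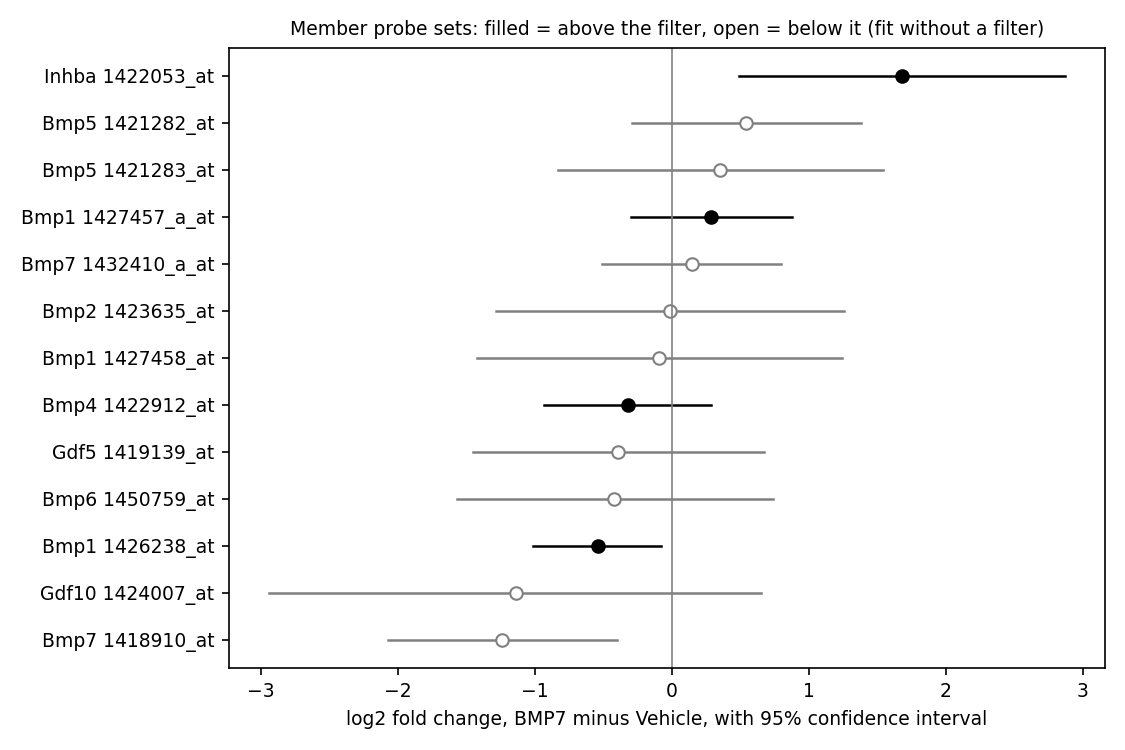
Log2 fold change (BMP7 minus vehicle) of the 13 member probe sets with 95% confidence intervals, filled for the 4 above the filter and open for the 9 below it, which come from the fit without a filter. The intervals of Inhba (0.49 to 2.87), Bmp1 1426238_at (-1.01 to -0.08) and Bmp7 1418910_at (-2.07 to -0.40) lie on 1 side of 0 before any correction for multiple tests.

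Across the 8 arrays, the profiles closest to that of Bmp1 1426238_at, as root mean square difference of log2 values centred on each probe set's mean, were those of Stk38 (0.07), Rab4a (0.08) and Stom (0.09), beside a spread of Bmp1 itself of 0.36. Those closest to Bmp4 were Rbpj (0.13), Vwa8 (0.13) and Tuba4a (0.16), beside a spread of Bmp4 of 0.41. These are descriptions over 8 arrays that share 2 groups, with no test.

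The ligands were set beside 65 other genes of the pathway, of which 59 had a probe set of their own and 35 were tested with 1 probe set per gene. Of these 35, 7 rose and none fell in limma, against 1.56% of all 8374 tested genes that rose and 1.73% that fell. At an unadjusted p under 0.05 there were 13 of the 35, against 21.8% of all tested probe sets. The list was chosen with earlier results of these data known, and it holds known targets and inhibitors of BMP signalling. The contrast with all genes is therefore a description and not an independent test. The median log2 fold change of the list was 0.33, against 0.04 for all tested probe sets. By role, 0 of 8 other ligands passed (2 at an unadjusted p under 0.05), with log2 fold changes from -1.11 for Tgfb2 (adjusted p 0.0579) to 0.79 for Tgfb1 (adjusted p 0.316). None of 5 receptors, 5 signal-carrying SMADs and 7 secreted antagonists and modulators passed either, with 1, 0 and 2 at an unadjusted p under 0.05. All 3 inhibitors inside the cell or at the membrane rose (Smad6, Bambi and Smad7), as did 3 of 4 Id targets (Id4, Id3 and Id1) and 1 of 3 tested proprotein convertases and tolloid proteases (Pcsk6).

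Pcsk6, on chromosome 7, encodes the convertase PACE4, which cuts precursors of this ligand family. It gave 1608.5, 1394.4, 1211.8 and 1133.4 on BMP7 1 to 4, against 362.7, 399.6, 215.6 and 594.8 on Vehicle 1 to 4, and the lowest BMP7 array lay well above the highest vehicle array. The rise was 3.47-fold (log2 fold change 1.80 ± 0.29 SE, adjusted p 0.0101 in limma), and it lost its call without BMP7 2 (adjusted p 0.0506). Bambi encodes a membrane pseudoreceptor that dampens BMP and TGF-beta signals. Its signals were 3374.9, 3564.6, 4449.1 and 2257.6 on BMP7 1 to 4, against 1512.2, 1776.4, 499.2 and 646.6 on Vehicle 1 to 4. Bambi rose 3.39-fold (adjusted p 0.0385 in limma), and lost its call without Vehicle 1 or when a single BMP7 array was dropped (adjusted p up to 0.139). Id1 lost its call in 6 of the 8 fits without 1 array, while Smad6, Smad7, Id3 and Id4 passed in all 8. Without BMP7 2 the number of pathway genes that rose was 4, and with the hybridisation control covariate it was 2.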

How the data were processed

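Total RNA of 4 BMP7-treated and 4 vehicle-treated samples was hybridised to Affymetrix mouse 430A arrays as biotinylated cRNA. The deposited intensity values are linear signals from MAS5, per the submitters' processing notes. The scaling target and the software version are not known here. The 2% trimmed mean of every array was 1500.4 to 1500.7, so 1 scaling had been applied. Groups and replicate numbers came from the sample titles, through a value table whose columns are named by sample. The other table supplied gene symbols, and its 8 columns of single arrays, which carry no sample name, were not used. Per the file headers it also holds the authors' group means, their ratio and a p-value. The deposited means equalled those of the labelled columns, and the deposited p-value equalled that of an unequal-variance test on linear signals within 5.00e-10.

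Signals were analysed as log2(signal + 16), which understates the fold change of low signals. The 64 control probe sets were left out. Probe sets whose mean over the 8 arrays reached the 40th percentile (8.41) were tested, 13576 in all, with limma 3.58.1 (eBayes with an intensity trend, two-sided, no covariate) in R 4.3.3 and Benjamini-Hochberg adjustment over all of them. The fit was tested on simulated data. The median SE of a log2 fold change was 0.25, and the number of arrays limits the precision. For pathway genes the tested probe set with the highest mean was used, with symbols updated through Entrez identifiers to RefSeq (20839 of 21466 single-gene probe sets matched). Every member probe set is named, and of the pathway genes those past the threshold; Tgfb1 and Tgfb2 were named after their values were seen. The members and lists were chosen with earlier results of these data known. Nothing in the labels states that the samples are separate cultures; the p-values then reflect the spread of these samples alone, possibly technical. The alternatives covered the pseudocount, filter, normalization, variance prior, array weights, a replicate block, covariates, the authors' test and each array left out. For the pathway counts the mean of a gene's tested probe sets was also fitted, and 7 genes rose and 0 fell. All but that fit and the filter alternatives kept the same tested probe sets.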

Additional observations from a re-analysis of the deposited data

Results flagged for a closer look

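In the BMP7 group the Bmp4 signal of BMP7 3, 937.3, lay far from the other 3 arrays, of which the nearest was at 1715.4. The gap was 0.885 of the group's range on the log2 scale, past Dixon's 95% critical value for 4 samples. It was the only flag among 26 groups of 4 arrays examined for the 13 member probe sets, and chance flags about 1 in 20. Without this array the Bmp4 log2 fold change was -0.08, against -0.32 with it.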

How the results depend on the processing

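No member probe set passed as lower under any alternative, and 1, Inhba, passed as higher, in the fit without Vehicle 3 only; over the fits without 1 array the count of higher members was 0 to 1. The direction of the tested members held under all alternatives except for Bmp1 1427457_a_at, which turned to -0.24 with the hybridisation control covariate; the cause was not tested. Over the fits without 1 array, 39 to 702 tested probe sets passed as higher and 51 to 382 as lower, against 221 and 204 in the reported fit, and 4 to 8 pathway genes passed as higher and 0 to 2 as lower. Array weights gave 1013 higher and 765 lower probe sets and 3 lower pathway genes. The hybridisation control covariate gave 17 higher and 18 lower probe sets and 2 higher pathway genes. The authors' unequal-variance test, adjusted here, gave 2 higher and 2 lower probe sets and 0 pathway genes. With the replicate number as a block 374 probe sets were higher and 1 pathway gene lower, and Inhba had an adjusted p of 0.0949. Deviations of same-numbered arrays from their group means correlated at 0.04 to 0.38. BMP7 1, 3 and 4 each correlated best with the vehicle array of their own number (0.38, 0.15 and 0.19). BMP7 2 correlated best with Vehicle 4 (0.11, against 0.04 with Vehicle 2). As not every pair was over 0.1, the numbers were not taken to pair the samples. Whether the samples were paired cannot be told from these correlations. With the filter at the 60th percentile Bmp1 1427457_a_at was not tested.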
